A study of Bos taurus with 90 samples.

Results

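Mural granulosa cells (MGCs) and the single oocyte of the same bovine antral follicle were compared by RNA-seq. The comparison used the 54 MGC and oocyte libraries of 27 follicles, of 90 libraries in the whole series, and each follicle gave 1 library of each cell type. Members were chosen by their cell type and follicle number, and not by the level of any gene compared here. Left out were 3 follicles, with 6 libraries of these cell types, that had been excluded in quality control for their mapping rates and mitochondrial shares, which are themselves measured on the libraries. The 30 cumulus cell libraries were not compared.

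The follicles were dissected from ovaries of Bos taurus cows with no treatment named, and fell into 9 small follicles of 3.1 to 3.8 mm (S1 to S9), 8 medium follicles of 6.2 to 7.0 mm (M1 to M8) and 10 large follicles of 9.6 to 11.6 mm (L1 to L10). Genotype, breed and age were not given in the labels. MGCs were peeled from the follicle wall and sequenced as bulk RNA, whereas each denuded oocyte was lysed and its cDNA amplified by SMART-seq2, a protocol for full-length cDNA from very little RNA. Cell type and library protocol therefore changed together and cannot be told apart in any difference given here. According to the methods, each collection batch used very few ovaries and gave follicles of every size, so that follicles share animals. The labels do not tie follicles to cows or batches, and the p-values treat follicles as independent.

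MGCs line the wall of the antral follicle, respond to follicle-stimulating hormone and convert androgens into estradiol. The oocyte sits inside its cumulus cells, stores RNA and protein for meiosis and the early embryo, and signals to the somatic cells around it. They share the follicle but descend from different lineages, somatic and germ line. The question addressed was how far their transcriptomes differed, and whether that difference changed as the follicle grew.

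The counts cover 27270 genes named by Ensembl identifiers alone, and no table used here paired these identifiers with gene symbols. Genes are therefore described by classes and counts, and 4 identifiers are named. The granulosa and oocyte labels could not be checked against their defining marker genes for the same reason. Total counts ranged from 26739954 to 39266980 in MGC libraries and from 8442938 to 53173320 in oocyte libraries. The oocytes of S8, L9 and S9 had the fewest genes with a count, 10588, 11861 and 12026, against a median of 15322 over the 27 oocytes and a range of 16211 to 18651 in MGCs. Without these follicles 11211 genes were DEGs between the cell types, 5430 higher in MGCs and 5781 higher in oocytes, against 11223, 5572 and 5651 with them.

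MGCs and oocytes differed in most genes tested. CPM, the counts of a gene scaled to the total of its library, had to exceed 1 in 15 or more libraries of MGCs or of oocytes, which 14873 genes did, and these were tested with the follicle as a block. Of these, 11223 (75.5%) were differentially expressed genes (DEGs), with a fold change above 2 and an adjusted p under 0.05 in edgeR's quasi-likelihood test. The limit let in genes that met it in 1 cell type alone, which raises this share. Of the 10232 genes that met it in both, 6718 (65.7%) were DEGs. All DEGs were split nearly evenly, with 5572 (37.5%) higher in MGCs and 5651 (38%) higher in oocytes. Scaling moved this split, because the median log2 fold change of all genes shifted by 0.38 with TMM factors and by 0.78 with the size factors of DESeq2. With these size factors 6907 DEGs were higher in MGCs and 4370 in oocytes, so that 61.2% rather than 49.6% were higher in MGCs. No gene called in both was called in opposite directions.

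**Figure D1:**
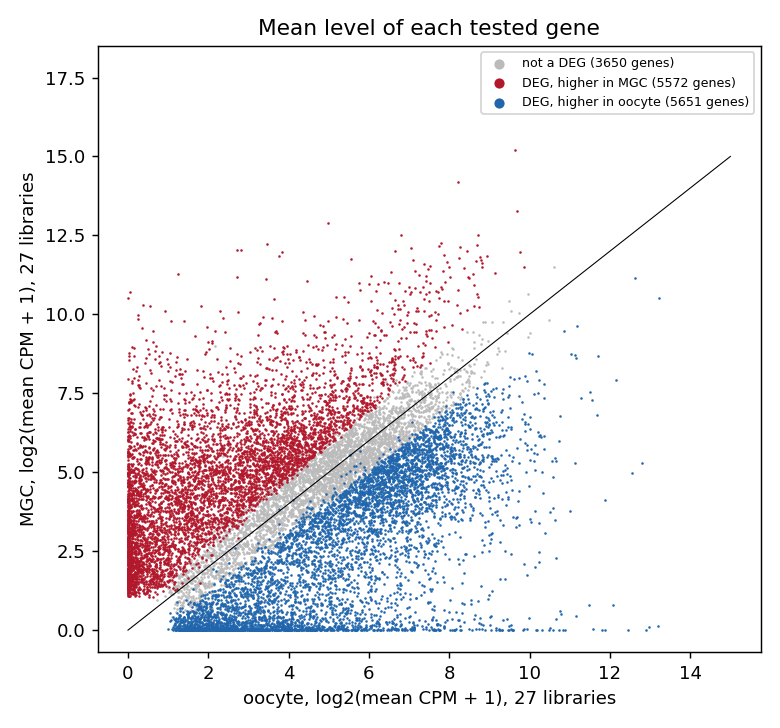
Mean level of each of the 14873 tested genes in oocytes (horizontal axis) and MGCs (vertical axis), as log2 of the mean CPM over 27 libraries plus 1, with 1 point per gene and the line of equal levels. Most of the 5572 DEGs higher in MGCs lie above the line and most of the 5651 higher in oocytes below it, with 1 and 2 exceptions because calls came from the blocked fit and not from these means, and both clouds reach the axes, where a gene was near 0 in the other cell type.

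Many differences were large. The fold change was above 16 in 2590 genes (17.4%) higher in MGCs and in 2201 genes (14.8%) higher in oocytes. It was above 256 in 977 genes higher in MGCs and in 862 higher in oocytes, and 174 and 224 of the DEGs had no count at all in the 27 libraries of the other cell type. The fitted fold change of such a gene depends on the prior count and is not a measured size, and without these genes 803 and 638 remained above 256-fold. The median log2 fold change of the DEGs was 3.72 for those higher in MGCs and -3.16 for those higher in oocytes, and it was the same when genes without a count were set to the bound that 3 counts over the 27 libraries give.

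The libraries of the cell types did not overlap in 2375 genes (16%) that were higher in every MGC library than in any oocyte library, and in 2395 genes (16.1%) with the opposite order. All of the former and 2393 of the latter were DEGs. Within follicles, the MGCs were above their own oocyte in all 27 follicles for 3600 genes (24.2%), and the oocyte was above its own MGCs in all 27 for 3181 genes (21.4%). A stricter on or off pattern was rarer. A CPM above 1 in all 27 libraries of one cell type and below 1 in all 27 of the other was found for 231 genes in MGCs and for 487 genes in oocytes, of which 31 and 71 had no count in the other cell type.

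The DEGs also held most of the counts. Genes higher in MGCs took 66.3% to 75.5% of the counts of an MGC library, with a median of 70.9%, and 6.38% to 9.49% of an oocyte library. Genes higher in oocytes took 69.6% to 76.5% of an oocyte library, with a median of 73.1%, and 8.43% to 12.8% of an MGC library. These shares describe genes selected on the same libraries and were not tested.

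The most abundant genes were almost separate lists. The 100 genes with the highest mean CPM in MGCs and the 100 in oocytes shared 4 genes. Of the MGC list 95 genes were DEGs higher in MGCs and 2 were higher in oocytes, and 3 had a mean CPM below 1 in oocytes. Of the oocyte list 95 genes were DEGs higher in oocytes and 0 were DEGs higher in MGCs, and 24 had a mean CPM below 1 in MGCs.

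Both cell types nevertheless used many genes in common. The limit of a CPM above 1 in at least 15 libraries was met by 10232 genes in both cell types, by 2382 genes in MGCs alone and by 2259 genes in oocytes alone. Of the genes that met it in both, 6718 (65.7%) were still DEGs, 3225 higher in MGCs and 3493 higher in oocytes. Among 6362 genes with a mean CPM of at least 10 in both cell types, the 95% interval of the fold change lay wholly within 2-fold for 1669. Among the 1756 genes with a mean CPM of at least 50 in both, this held for 700 genes.

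The genes named here had the largest fold change in each direction among DEGs with a mean CPM of at least 50 in the higher cell type and no overlap between the cell types. The first higher in MGCs was ENSBTAG00000021466. It ranged from 3.03 to 4102 CPM in MGCs, with a median of 1580 CPM, and had no count in any of the 27 oocytes. Against a floor of 3 counts, as deposited, over all oocyte libraries it was at least 402939-fold higher in MGCs. The MGCs of L6 (3.03 CPM) and S2 (12.1 CPM) stood far below the rest, of which the lowest was L10 with 263 CPM.

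The second gene higher in MGCs, ENSBTAG00000013066, ranged from 6.33 to 3157 CPM in MGCs, with a median of 1660 CPM. Its lowest MGC libraries were again L6 (6.33 CPM) and S2 (42.2 CPM), followed by L10 with 342 CPM. In oocytes 25 of 27 libraries had no count, and the highest value was 0.532 CPM in L1. The log2 fold change was 16.94 ± 0.44 (SE, n = 27 follicles, edgeR adjusted p = 8.65e-25). The identity of both genes, and of the low values they share, is not given by the table.

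Of the genes higher in oocytes, ENSBTAG00000026085 ranged from 2689 to 12105 CPM in oocytes, with a median of 4857 CPM, and had no count in any of the 27 MGC libraries. Against the same floor of 3 counts over the MGC libraries it was at least 1706660-fold higher in oocytes. Its median in oocytes was 7299 CPM at the small stage, 4845 CPM at the medium stage and 4638 CPM at the large stage, and the ranges of the stages overlapped. No test of the stage was made for this gene within oocytes.

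The other, ENSBTAG00000034346, ranged from 5242 to 11826 CPM in oocytes, with a median of 7225 CPM. It had 9 counts in all over the MGC libraries, of which 24 had none. The log2 fold change was -19.20 ± 0.41 (SE, n = 27 follicles, edgeR adjusted p = 7.25e-27). Its size rests on those 9 counts, and it was -18.31 with the 10 healthy follicles. Its median in oocytes was 8454 CPM at the small stage, 7535 CPM at the medium stage and 6182 CPM at the large stage, with overlapping ranges. The MGC to oocyte difference of ENSBTAG00000034346 did not pass the test among the 3 stages (edgeR, adjusted p = 0.938). With so few counts in MGCs that test says little, and no test of the stage was made within oocytes. The libraries of the cell types did not overlap in either gene, as the choice of genes required.

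**Figure D2:**
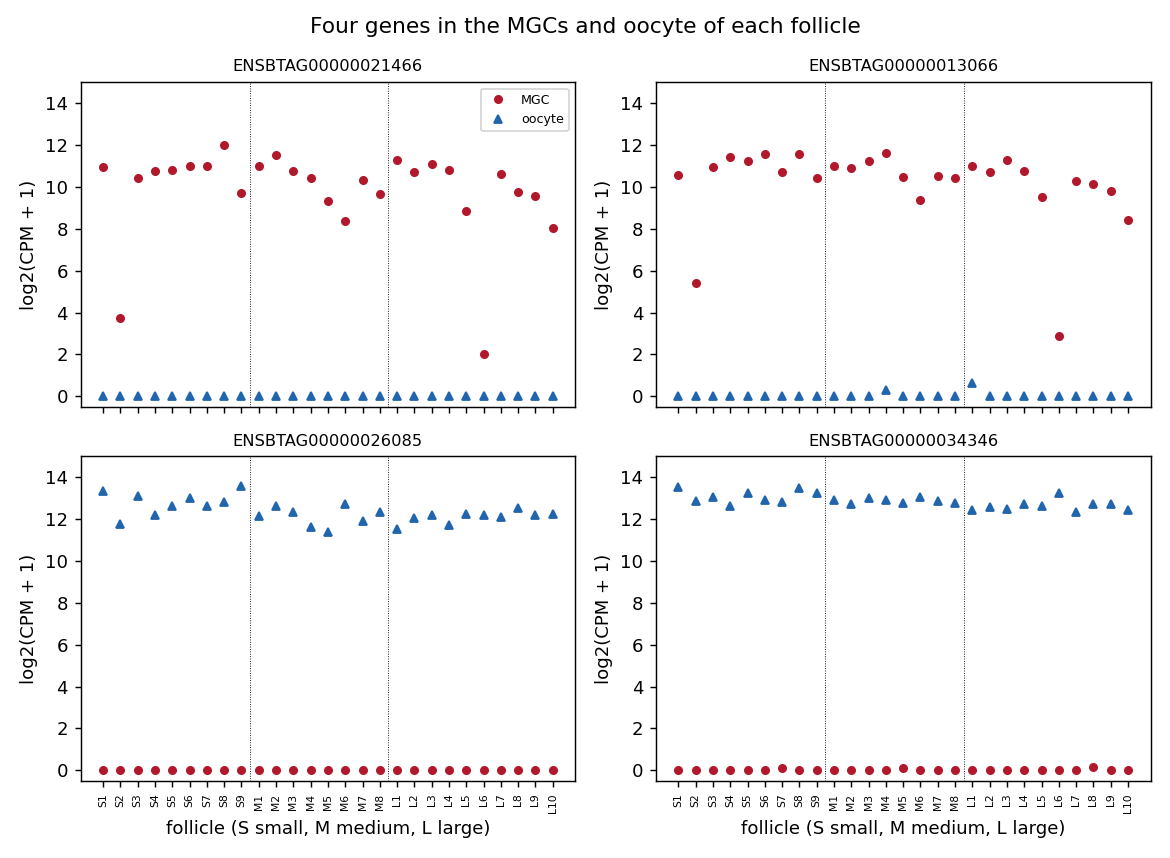
Level of the 4 named genes in the MGCs (circles) and the oocyte (triangles) of each of the 27 follicles, as log2 of CPM plus 1, with follicles on the horizontal axis and dotted lines between stages. The genes were chosen for no overlap between the cell types, so their separation in every follicle follows from the choice. The MGCs of S2 and L6 lie low in both genes of the upper panels, at 12.1 and 3.03 CPM in the first.

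Genes at high level in one cell type were also read at low level in the other. A set of 210 genes with a median of at least 50 CPM in MGCs and over 256 times the oocyte median summed to between 53280 and 93356 CPM in MGC libraries and to between 68.3 and 496 CPM in oocyte libraries. The 254 genes chosen the same way for oocytes summed to between 126285 and 168721 CPM in oocyte libraries and to between 73.5 and 396 CPM in MGC libraries. These sets were chosen on the same values, so their difference is no test, and the source of the low counts was not tested.

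Counts were more concentrated in MGCs than in oocytes. The 10 most abundant genes of a library took 11.9% ± 3.34 of the counts in MGCs and 6.95% ± 1.03 in oocytes (SD, n = 27 libraries each). The share was higher in the MGCs than in the oocyte in 26 of 27 follicles (two-sided sign-flip permutation test, p = 1e-05, the smallest that 100000 resamples can give, adjusted p = 2e-05 over the 2 measures tested). Without S8, S9 and L9 it was higher in 23 of 24 follicles, by a mean of 5.02 percentage points against 4.99 with them. The largest single gene took 1.98% to 8.41% of an MGC library and 0.695% to 1.47% of an oocyte library.

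**Figure D3:**
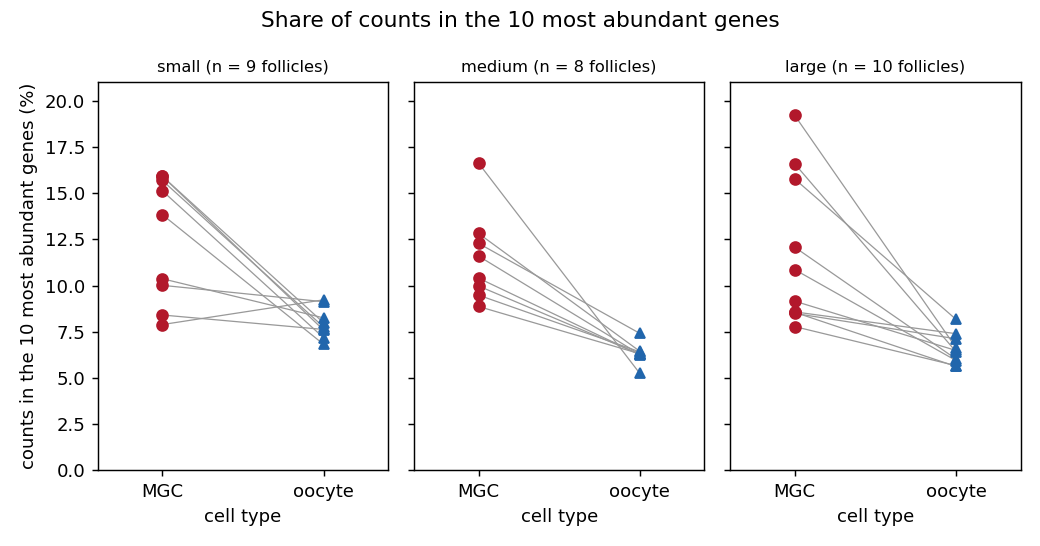
Share of the counts of a library in its 10 most abundant genes, in percent, for the MGCs (circles) and the oocyte (triangles) of each follicle, joined by a line, in the 3 stages. MGCs lie above their own oocyte in 26 of 27 follicles, and MGCs range from 7.78% to 19.2% against 5.24% to 9.23% in oocytes.

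The number of genes with a CPM above 1 did not pass the same test. It was 12724 ± 452 in MGCs and 12527 ± 906 in oocytes (SD, n = 27 libraries each), and it was higher in MGCs in 15 of 27 follicles (permutation test, p = 0.400). The mean difference was 197 genes, and without S8, S9 and L9 it was -123 genes (24 follicles, permutation test, p = 0.307). The limit chosen mattered, since MGCs had more genes than the oocyte above a CPM of 0.1 in 24 of 27 follicles (permutation test, p = 1e-05, the smallest possible) and above a CPM of 10 in 20 of 27 (permutation test, p = 0.00323).

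The spread between follicles was compared gene by gene as a description. Over the 6362 genes with a mean CPM of at least 10 in both, the median SD of log2(CPM + 1) within a stage was 0.443 in MGCs and 0.518 in oocytes. By stage, the median SD was 0.448 in MGCs and 0.608 in oocytes of small follicles, 0.409 and 0.371 in medium follicles, and 0.423 and 0.441 in large follicles. Without S8, S9 and L9, whose oocytes had few genes with a count, it was 0.418 and 0.483 in small follicles and 0.412 and 0.415 in large follicles, and 0.433 in MGCs and 0.450 in oocytes over all stages.

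The difference between the cell types was found at every stage. From one fit with cell type and stage, DEGs numbered 10712 (72%) at the small stage, 10262 (69%) at the medium stage and 10677 (71.8%) at the large stage. Of these, 4406 genes were higher in MGCs and 4676 were higher in oocytes in all 3 stages. Only 9 genes were DEGs in opposite directions in different stages, and 7 of them also passed the test of the interaction.

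The interaction of cell type with stage asks whether the MGC to oocyte difference itself changed with follicle growth. It passed an adjusted p under 0.05 over the 3 stages in 180 genes (1.21%; edgeR), and in 857 genes with DESeq2. From small to large follicles, 286 genes (1.92%) changed their log2 fold change by more than 1 at an adjusted p under 0.05, and 154 of them were among the 180. DESeq2 called 1189 genes by the same limits. From small to medium follicles 10 genes (0.0672%) did so in edgeR and 599 in DESeq2. From medium to large follicles the count was 0 (0%) in edgeR, with 357 genes at an unadjusted p under 0.05 and a change above 1, and 27 genes in DESeq2.

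These counts also depended on the follicles used. With all 30 follicles, which restores the 3 excluded in quality control, the interaction was called in 6 genes, and with the 10 follicles of the healthy set, in which medium to large gave 66 genes, it was called in 10 genes, 2 of them among the 180. Without S8, S9 and L9 the interaction was called in 144 genes, 98 of them among the 180, and the small to large difference in 295. With the first 3 digits of the follicle number by cell type as a covariate it was called in 70 genes, 29 of them shared, and the labels do not say what these digits stand for. Without the follicle as a block 824 genes were called over the 3 stages and 830 from small to large.

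Single follicles also moved the interaction. Leaving out each of the 19 small and large follicles in turn gave between 77 genes, without S1, and 271 genes, without S7. The count moved by over 1.5 times without S2 (99 genes), S5 (111 genes), S3 (113 genes) and L5 (115 genes) as well. The small to large count was 165 without S1 and 445 without S7. On simulated counts with 200 genes of a 4-fold larger difference in large follicles, 87 were recovered from small to large, so that unchanged and undetected genes are not separated at this depth and spread.

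Of the 286 genes, the MGC to oocyte fold change was lower in large than in small follicles in 210 and higher in 76. Scaling moved this split as well. It was 176 lower and 95 higher with TMM factors, and 191 and 110 with the size factors of DESeq2 in edgeR. With the follicle number digits as covariate it was 135 and 99. Over all tested genes the median change in log2 fold change from small to large follicles was -0.28. In the 210 genes the median log2 fold change was 0.62 at the small stage, -0.48 at the medium stage and -1.25 at the large stage, and the medium value lay between the others in 194 genes. From small to large follicles their level changed by a median of -0.63 in MGCs and 0.86 in oocytes on the log2(CPM + 1) scale, against 0.13 in oocytes over all tested genes. Without S8, S9 and L9 these medians were -0.66 in MGCs and 0.73 in oocytes. The sign of the difference turned between small and large follicles in 62 of the 210 genes.

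In the 76 genes the median log2 fold change was -1.93 at the small stage, -1.03 at the medium stage and -0.77 at the large stage, with the medium value between the others in 70. Their level changed by a median of 0.62 in MGCs and -0.58 in oocytes, and by 0.66 and -0.56 without S8, S9 and L9. The larger of the 2 changes was that of the MGCs in 40 genes and that of the oocyte in 36, and in the 210 genes it was that of the MGCs in 90 and of the oocyte in 120. These medians describe genes selected by the same test.

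**Figure D4:**
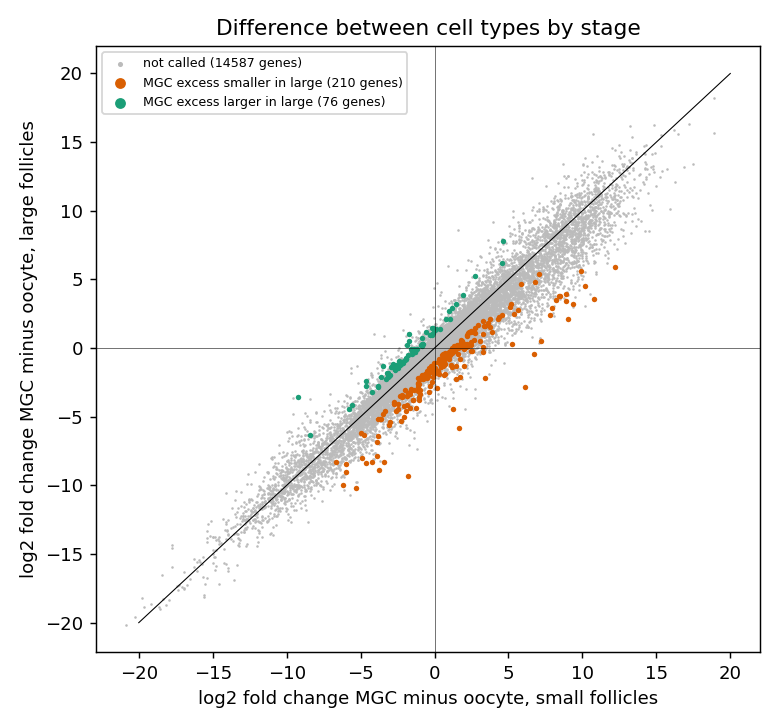
Log2 fold change of MGCs over oocytes in small follicles (horizontal axis) and large follicles (vertical axis), with 1 point for each of the 14873 tested genes and the line of equal fold changes. The 210 genes called with a lower fold change in large follicles lie below the line and the 76 with a higher one above it. All other genes are grey. What the legend calls MGC excess is this log2 fold change, which is negative for genes higher in oocytes.

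The transcriptomes of MGCs and oocytes were weakly alike in rank. Spearman's rho of log2(CPM + 1) across the 14873 genes was 0.211 to 0.458 over 729 pairs of an MGC and an oocyte library, with a median of 0.362. It was 0.805 to 0.990 between MGC libraries and 0.796 to 0.970 between oocyte libraries (351 pairs each). The genes included set this level, since the rho of MGCs with their own oocyte had a median of 0.363 over all tested genes and of 0.131 (-0.0011 to 0.245) over genes with a mean CPM above 10 in either cell type. These are correlations across genes, which are not independent replicates, and are given as a description.

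MGCs were about as similar to the other oocytes of their stage as to their own. The rho with the own oocyte was above the mean rho with the other oocytes of the stage in 15 of 27 follicles, with a median difference of 0.0015. Deviations from the stage means correlated between the MGCs and the oocyte of a follicle with a median of 0.0019, from -0.12 to 0.11, and were highest for the own oocyte in 4 follicles.

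The rho with the own oocyte had a median of 0.358 in small follicles (0.254 to 0.391, n = 9), 0.386 in medium follicles (0.343 to 0.440, n = 8) and 0.368 in large follicles (0.331 to 0.397, n = 10). The ranges overlapped. Stage took 28.1% of the variance among the 27 follicles (permutation test, p = 0.0174, adjusted p = 0.0261 over 3 tests), but without S8, S9 and L9 it took 19.3% and did not pass (24 follicles, permutation test, p = 0.104). The 2 other tests were added after these values were seen. The mean rho of an oocyte with all MGC libraries gave 32.6% (permutation test, p = 0.00665, adjusted p = 0.0199), and 23.4% without these follicles (permutation test, p = 0.0593). The mean rho of an MGC library with all oocytes gave 9.85% (permutation test, p = 0.288).

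**Figure D5:**
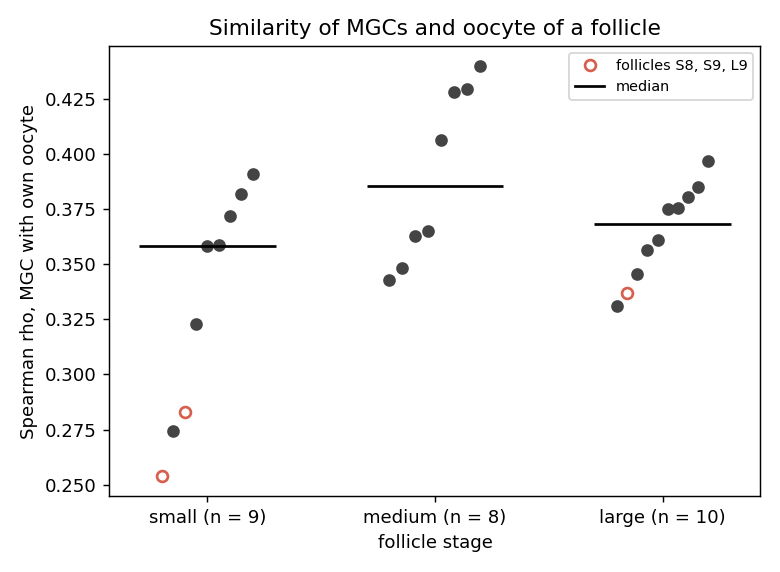
Spearman's rho across 14873 genes between the MGCs and the oocyte of the same follicle (vertical axis) by stage, with 1 point per follicle and the stage median as a line. Open points mark S8, S9 and L9, whose oocytes had the fewest genes with a count, and the medians are 0.358, 0.386 and 0.368 with overlapping ranges.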

How the data were processed

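The authors deposited raw counts per gene for all libraries, without normalization. The submitters' processing notes name HISAT2 2.2.1, featureCounts and ARS-UCD1.2, and the deposited table carries the name of HISAT2, whereas the methods name STAR for the same step. Oocyte cDNA was amplified without molecular identifiers, so counts are not molecules. Of nonzero counts up to 20, a mean of 63.0% were even in MGC libraries and 65.8% in oocyte libraries. The source of this was not tested. With counts divided by 2, 11261 genes were DEGs and 188 passed the interaction over 3 stages. The fold bounds from 3 counts take counts as deposited and would be lower if counts came in pairs.

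Groups came from the titles, and the MGCs and oocyte sharing a follicle number were paired because both were taken from that follicle. Deviations of the pairs from stage means were compared, and 1 of 27 correlations was above 0.1. Counts were fitted with edgeR 4.0.16 in R 4.3.3 (glmQLFit, glmQLFTest), with library totals as offsets and the follicle as block, and p-values were adjusted by Benjamini-Hochberg over all tested genes. SEs were the log2 fold change over the root of F. DESeq2 1.42.0 was an alternative, as were other scalings, filters and follicle sets, including the 10 follicles that the study kept as healthy. Single values used 100000 resamples with seed 1 in Python 3.11.15 (numpy 2.4.6, scipy 1.17.1, pandas 2.3.3), and plots used matplotlib 3.10.9. The named identifiers were the 2 largest folds per direction among DEGs with a mean CPM of at least 50 and no overlap.

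On simulated counts of 14873 genes, 178 of 200 genes changed 4-fold between MGCs and oocytes were recovered with 2 unchanged genes called, and 94 of 200 in the interaction over 3 stages with 1. The changed genes were drawn from genes above a low limit of mean CPM. Apart from them, means were equal in both cell types, and no follicle effect was put in. The members, lists and rules were chosen with earlier results of these data known. Gene lists and marker checks were planned but not run, because 0 identifiers were paired with a symbol. Tests of the interaction for genes without a count in one cell type carry no information.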

Additional observations from a re-analysis of the deposited data

Results flagged for a closer look

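Of 45 groups of 8 to 10 libraries or follicles examined for a single far value, 5 had one, and chance gives about 1 in 20. The oocyte of L9 had 11861 genes with a count and 10830 with a CPM above 1, against 14427 and 12445 in the next lowest oocyte of the large follicles. The genes leading in oocytes summed to 277 CPM in the MGCs of L2, against 146 CPM in the next highest large follicle. ENSBTAG00000021466 stood at 4102 CPM in the MGCs of S8, against 2078 CPM in the next small follicle. ENSBTAG00000034346 stood at 9700 CPM in the oocyte of L6, against 6858 CPM in the next large follicle.

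The MGC to oocyte difference differed between stages by a test of the difference itself in 180 genes over the 3 stages, in 286 genes from small to large follicles and in 10 genes from small to medium follicles (edgeR). These counts changed with the set of follicles, as given below.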

How the results depend on the processing

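The DEG count of MGCs against oocytes stayed within 1.5 times its value in all 11 alternative settings, between 10685 with the 10 healthy follicles and 15672 without a filter, and between 11199 and 11228 when each of the 27 follicles was left out. Genes higher in MGCs numbered 8518 without a filter, and 5513 to 5603 with a follicle left out, and genes higher in oocytes 5615 to 5708. Without the replicate block, which leaves out the pairing by follicle, 11128 genes were DEGs and the within-stage counts were 10840, 10491 and 10803. The counts under TMM factors and DESeq2 size factors were also within 1.5 times at each stage.

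The interaction over 3 stages was called in 857 genes with DESeq2, 102 without a filter, 6 with all 30 follicles, 10 with the healthy follicles, 824 without the replicate block and 70 with the follicle number digits as covariate. From small to large the counts were 1189, 190, 10, 7 and 830 under the first 5 of these settings. From small to medium they were 599 with DESeq2, 1 with all 30, 1 with the healthy follicles, 235 without the block and 1 with the digits. From medium to large they were 27 with DESeq2, 66 with the healthy follicles and 14 without the block. Leaving out a small or large follicle gave 77 to 271 genes over 3 stages, 165 to 445 from small to large, 3 to 25 from small to medium and 0 to 1 from medium to large. Fits without each of the 8 medium follicles are not part of these ranges. The cause of these changes was not tested.

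The stage difference in similarity took 19.3% without S8, S9 and L9 (24 follicles, permutation test, p = 0.104). It passed in the other 3 settings, with 22.3% to 73.4%. The 73.4% came from the 10 healthy follicles, where the order of the stages was not that of the 27 follicles. Among the healthy ones the large stage had the lowest median rho, 0.365, against 0.382 for small and 0.429 for medium. The healthy large follicles were L5 (0.385), L8 (0.345), L9 (0.337) and L10 (0.397), so that L9 was among them. Without L9 the middle value of the healthy large follicles is that of L5, which lies above the small median. Among the 27 the small stage was lowest, at 0.358. The mean difference in genes detected was 1399 at a CPM of 0.1, 394 at 10, and -123 without S8, S9 and L9. Leaving out these follicles, or S2 and L6, was chosen after seeing the data. Concentration without mitochondrial genes was not run, since no identifier was named. The oocyte of S8 had 10588 genes with a count from 44993182 counts, L9 11861 from 25834621 and S9 12026 from 36989249. M4, the shallowest oocyte, had 15120 genes from 8442938 counts. Whether the number of genes followed depth was not tested.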
